A study of Mus musculus with 6 samples.

Results

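The genes described here are 91 protein-coding genes of DNA replication and the cell cycle on the mouse autosomes, of 20722 protein-coding genes there. They were chosen by symbol alone: names that begin with Mcm, Orc, Gins, Rfc, E2f or Cdc and a digit, Cdk followed by digits only, and the numbered subunits of DNA polymerases alpha, delta and epsilon (Pola, Pold, Pole). The symbol pattern also takes in genes with other functions, such as Cdc42 and its effectors, and these are kept apart below. The study used chromatin immunoprecipitation with sequencing (ChIP-seq) in primordial germ cell-like cells (PGCLCs), cultured counterparts of the embryonic founders of eggs and sperm, at day 2. The 6 samples, all untreated and of strain 129Sv/J, comprised 2 HA immunoprecipitations, 2 for H3K4me3 (histone H3 carrying 3 methyl groups on lysine 4) and 2 inputs. Tex10 carried the HA tag at its C-terminus, and the labels do not say how the tagged cells were made, whether they are 1 clone, or whether the H3K4me3 and input samples came from the same tagged cells. The data used here are 1 deposited list of genomic intervals per antibody, with a start and an end but no height, score or p-value. Replicates therefore cannot be read apart, differences between samples cannot be tested, and read depth is not known. The values below describe these lists only.

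Before a cell copies its DNA, the origin recognition complex (ORC1 to ORC6) and CDC6 load the ring-shaped MCM2 to MCM7 helicase onto origins. CDC7 and cyclin-dependent kinases (CDKs) then join CDC45 and the GINS complex to the ring, the clamp loader (RFC1 to RFC5) places the sliding clamp, and DNA polymerases alpha, delta and epsilon copy the strands. E2F transcription factors bind the promoters of many of these genes and switch them on as cells enter S phase. H3K4me3 lies at the start sites of active and poised genes. Tex10 is a nuclear protein known from a ribosome biogenesis complex and from the control of pluripotency genes.

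An interval was counted for a gene if it came within 1 kb of the transcription start site (TSS) of any of its protein-coding transcripts. H3K4me3 was found at 87 of the 91 genes (95.6%, 95% Wilson interval 89.2 to 98.3%, which covers counting only), where 62.6% of all autosomal protein-coding genes had it. HA-Tex10 was found at 13 of the 91 (14.3%, 8.54 to 22.9%), where 9.13% of all these genes had it. Each of the 13 also carried H3K4me3, as did 1854 of all 1891 genes with HA-Tex10. Among genes with H3K4me3 the HA-Tex10 shares were 14.9% of the members (13 of 87) and 14.3% of all genes (1854 of 12966), so the members' share lay at the background of marked promoters. The genes with HA-Tex10 were Mcm4, Mcm5, Mcm8, Orc5, Orc6, Gins4, Rfc4, Pole3, Cdk4, Cdk5, Cdk19, Cdc25c and Cdc42ep3. The nearest interval counted for a member lay at most 456 bp from a TSS for HA-Tex10 (Cdc42ep3) and 252 bp for H3K4me3 (Cdk20). Among members with no interval counted for the antibody, the nearest interval lay at 3771 bp (Cdc16) and 18912 bp (Cdk15).

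**Figure D1:**
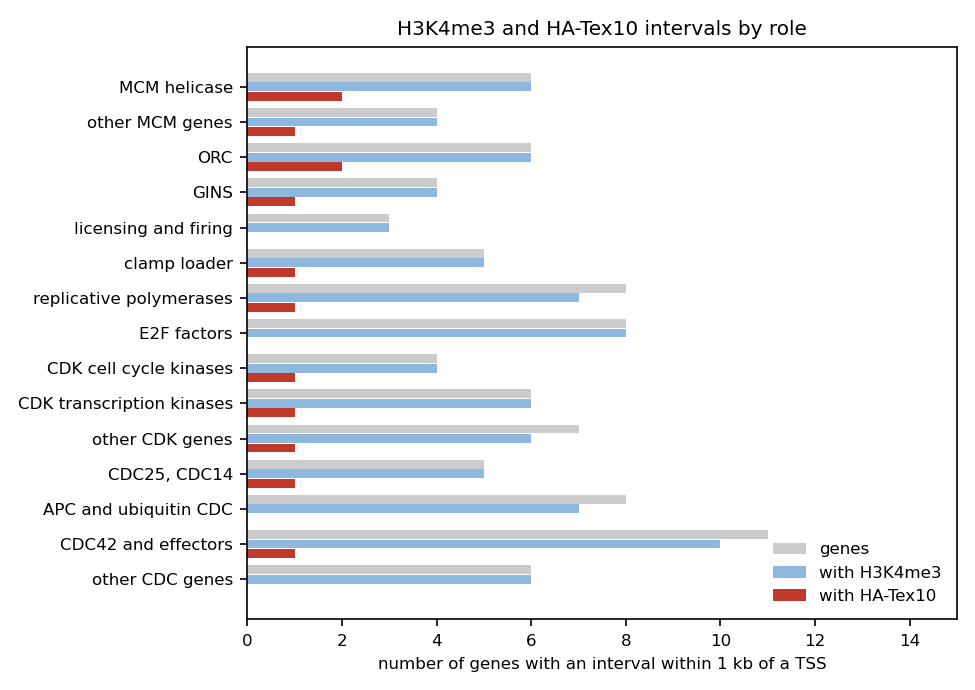
Number of member genes in each role group (grey), with H3K4me3 (blue) and with HA-Tex10 (red) within 1 kb of a coding TSS. Blue bars equal the grey ones in 11 of the 15 groups, and no group has more than 2 genes with HA-Tex10.

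The labelled cell type was read from promoter H3K4me3 alone. The pluripotency genes Pou5f1, Nanog and Sox2 were all marked, and 5 of 7 germ cell genes were (Prdm1, Prdm14, Tfap2c, Dnd1 and Kit), while Dppa3 and Nanos3 had no interval. Of 9 genes of liver, muscle, neurons and blood, 1 was marked, the neuronal gene Rbfox3.

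A sequence feature that the choice by symbol did not use was more frequent at the members' promoters than over all genes, although most members lacked it. E2F binding words were searched on both strands from 250 bp before to 50 bp after the 5'-most coding TSS, as TTTCCCGC, TTTGGCGC, TTTCGCGC or TTTGCCGC. They were found at 20 of the 91 members (22.0%), against 2.88% of all autosomal protein-coding genes. With H3K4me3-marked promoters alone the shares were 21.8% and 4.12%. There were 2 or more words at 7 members (7.69%) and at 28 of all genes (0.135%), where overlapping words on opposite strands count as 2. The words are a description of the reference sequence, and no binding of an E2F factor was measured. The stretches below are shown because they hold these words in genes of several roles: the helicase, ORC, GINS, licensing (Cdc6), the clamp loader, a polymerase, E2F, a CDK and a CDC25 phosphatase. Each runs 5' to 3' on the gene's strand in GRCm38, with the E2F words in capitals.
Mcm3 (chr1:20820263-20820313, minus strand): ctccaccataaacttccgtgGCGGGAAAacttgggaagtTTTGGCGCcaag
Mcm6 (chr1:128359725-128359835, minus strand): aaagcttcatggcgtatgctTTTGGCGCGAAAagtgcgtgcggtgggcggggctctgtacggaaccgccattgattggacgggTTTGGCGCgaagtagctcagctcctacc
Orc1 (chr4:108579407-108579454, plus strand): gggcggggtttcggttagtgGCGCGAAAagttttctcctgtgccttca
Gins1 (chr2:150909565-150909616, plus strand): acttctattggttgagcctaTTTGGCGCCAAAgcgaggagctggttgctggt
Cdc6 (chr11:98907821-98907850, plus strand): gaaggctgaagtagagcggcTTTGGCGCga
Rfc3 (chr5:151651193-151651238, minus strand): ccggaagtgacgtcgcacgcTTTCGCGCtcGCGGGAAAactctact
Pole2 (chr12:69228153-69228200, minus strand): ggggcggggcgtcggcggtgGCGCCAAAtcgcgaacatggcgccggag
E2f1 (chr2:154569848-154569908, minus strand): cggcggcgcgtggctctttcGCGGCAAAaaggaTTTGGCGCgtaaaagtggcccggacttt
Cdk1 (chr10:69353016-69353063, minus strand): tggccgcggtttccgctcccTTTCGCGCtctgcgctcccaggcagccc
Cdc25a (chr9:109875492-109875539, plus strand): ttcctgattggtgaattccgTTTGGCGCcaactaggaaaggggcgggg
In the Mcm6 and Gins1 stretches, 2 words on opposite strands overlap. None of these 10 genes had HA-Tex10 at a start site, because the members with both are shown further below. Of the 20 members with E2F words, Mcm4, Mcm5 and Mcm8 had HA-Tex10. That is 3 of the 19 marked ones (15.8%), against 14.9% of all marked members.

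Of the role groups, the MCM helicase had E2F words most often, at 4 of 6 genes (Mcm3, Mcm4, Mcm5 and Mcm6), followed by the E2F factors themselves at 4 of 8 (E2f1, E2f2, E2f3 and E2f7) and the CDK cell cycle kinases at 2 of 4 (Cdk1 and Cdk2). ORC had them at 2 of 6 genes (Orc1 and Orc3) and the polymerase subunits at 2 of 8 (Pole2 and Pole4). Mcm8, a helicase of DNA repair and meiosis, and Cdc20b also held a word. The CDK transcription kinases, the other CDK genes, the CDC42 group and the other CDC genes had 0 words in 30 genes. Of the 29 words at members, 21 began no more than 100 bp before the TSS. The CCAAT box, the word bound by NFY, stood at 47 of 91 members (51.6%) against 38.6% of all genes, and at 16 of the 20 members with E2F words. The CHR word TTTGAA of cell cycle promoters was found at 12 members (13.2%), against 15.8% of all genes. With H3K4me3-marked promoters alone the CHR shares were 13.8% and 11.9%. Among the 12 were Cdk1, Cdc20 and Cdc25c, but also Cdc37l1, Cdc40 and Cdc42ep4 of other roles. The NRF1 word was found at Cdc7 only (1.10% against 1.25%).

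**Figure D2:**
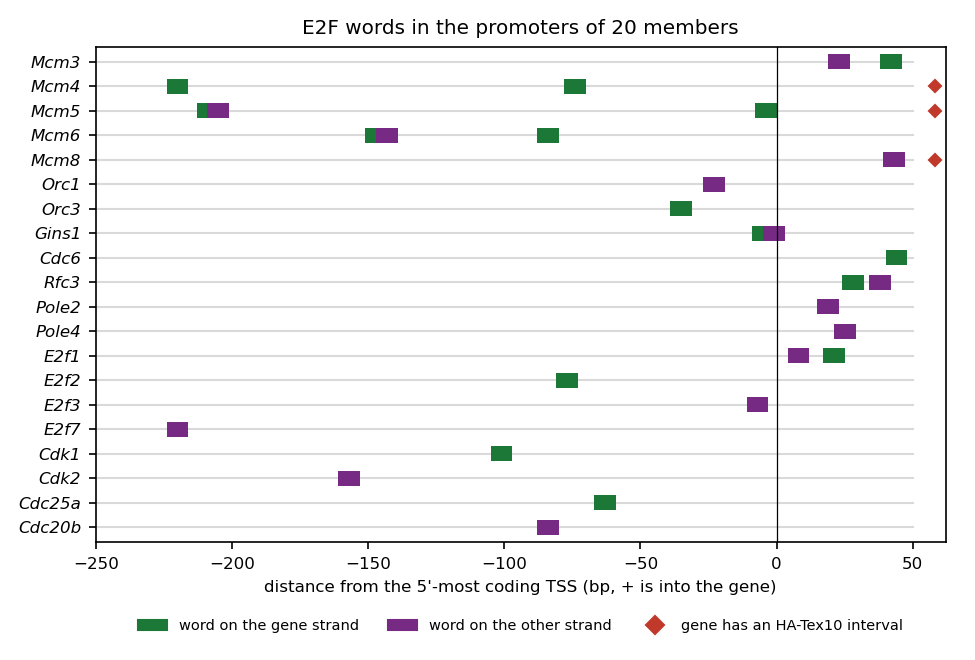
E2F words (boxes 8 bp long) in the promoters of the 20 members that hold them, by distance from the 5'-most coding TSS in bp, with the searched window in grey. Green and purple give the strand, and red diamonds mark Mcm4, Mcm5 and Mcm8, the genes that also had an HA-Tex10 interval.

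H3K4me3 covered nearly the whole replication machinery. All 6 MCM helicase genes, 6 ORC genes, 4 GINS genes, 5 RFC genes, 8 E2F genes and the licensing and firing genes Cdc6, Cdc7 and Cdc45 were marked, as were 7 of 8 polymerase subunits. The exceptions among the 91 were Pole4, Cdk15, Cdc34b and Cdc42ep1. Pole4, a small histone-fold subunit of DNA polymerase epsilon, had its nearest H3K4me3 interval 26330 bp from a coding TSS, although its promoter window held 30 CpG sites and an E2F word. Cdc42ep1, a CDC42 effector, had 33 CpG sites and its nearest interval at 32524 bp. Cdk15 and Cdc34b lay in windows of 7 and 1 CpG sites, with the nearest intervals at 18912 and 63927 bp. The median over all members was 24 CpG sites, against 12 over all genes and 20 over all marked genes.

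**Figure D3:**
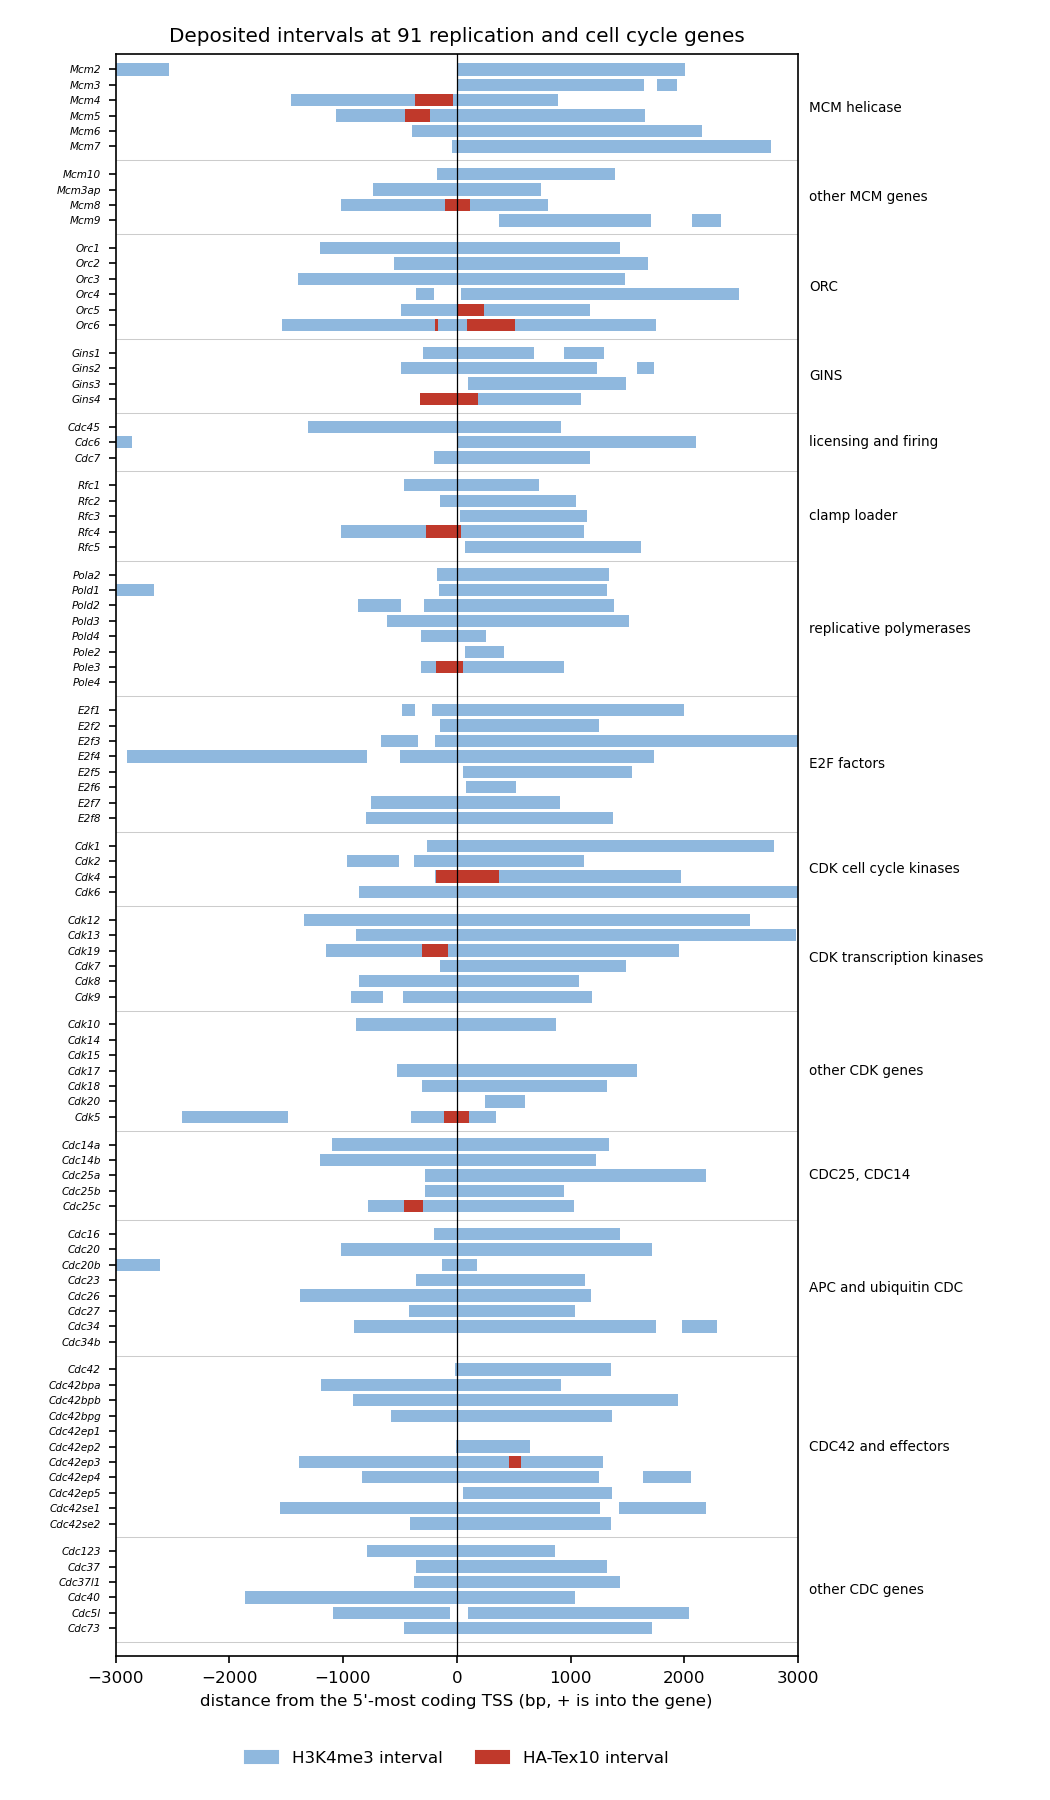
H3K4me3 (blue) and HA-Tex10 (red, drawn on top) intervals within 3000 bp of the 5'-most coding TSS of the 91 members, by role; positive distances lead into the gene. Rows without a blue bar are the 4 unmarked genes and Cdk14, whose interval lies at a later start site.

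H3K4me3 intervals at the members were wide. The widest interval at each marked member had a median of 1812 bp (87 genes, 305 to 4573 bp), against 1360 bp over all 12966 marked genes, and 71 of 87 members (81.6%) lay above that median. Of the 87 members, 39 (44.8%) were at 1982 bp or more, which only 3241 of all 12966 marked genes reached, and 7 were at 879 bp or less, as were 3246 of all marked genes. Width is the extent the authors' list gives and is not a height. No replicate spread can be set beside it.

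The widest belonged to kinases. Cdk6, a cyclin D kinase of G1 phase, had 4573 bp, wider than 99.0% of marked genes. Cdk12 (3922 bp) and Cdk13 (3865 bp), which phosphorylate RNA polymerase II, followed, then Orc6 (3287 bp) and E2f3 (3279 bp). The narrowest were at Cdc20b (305 bp), Pole2 (339 bp), Cdk20 (351 bp), E2f6 (438 bp) and Pold4 (576 bp). E2F6 represses without the pocket proteins. The ranges of the role groups overlapped broadly.

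Within the replication machinery the median widths were 2540.5 bp for ORC, 2445.5 bp for the MCM helicase, 2099 bp for Cdc6, Cdc7 and Cdc45, 1367.5 bp for GINS, 1197 bp for the clamp loader and 1471 bp for the polymerase subunits. The medians were thus larger for the origin and helicase groups than for GINS, the clamp loader and the polymerases, with overlapping ranges. ORC genes ran from 1659 bp at Orc5 over Orc2 (2237 bp), Orc4 (2447 bp), Orc1 (2634 bp) and Orc3 (2875 bp) to 3287 bp at Orc6. Mcm3 (1630 bp) and Mcm2 (1997 bp) were the narrowest of the ring, below Mcm4 (2347 bp), Mcm6 (2544 bp), Mcm5 (2717 bp) and Mcm7 (2813 bp). GINS genes were narrower, with 974 bp at Gins1, 1351 bp at Gins4, 1384 bp at Gins3 and 1730 bp at Gins2, so the widest GINS gene lay above only Mcm3 and Orc5 among the 12 helicase and ORC genes. Clamp loader genes ranged from 1118 bp at Rfc3 over Rfc1 (1194 bp), Rfc2 (1197 bp) and Rfc5 (1552 bp) to 2139 bp at Rfc4, the widest of the clamp loader. Among the polymerase subunits, Pold3 had 2122 bp, Pold2 1671 bp, Pola2 1510 bp, Pold1 1471 bp and Pole3 1262 bp. Cdc45 (2230 bp), Cdc6 (2099 bp) and Cdc7 (1372 bp) lay in the same range. The cell cycle kinases Cdk1, Cdk4 and Cdk2 had 3052, 2158 and 1492 bp. The remaining E2F genes ran from 1399 bp at E2f2 over 1488 bp (E2f5), 1662 bp (E2f7), 2174 bp (E2f8) and 2215 bp (E2f1) to 2239 bp at E2f4.

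**Figure D4:**
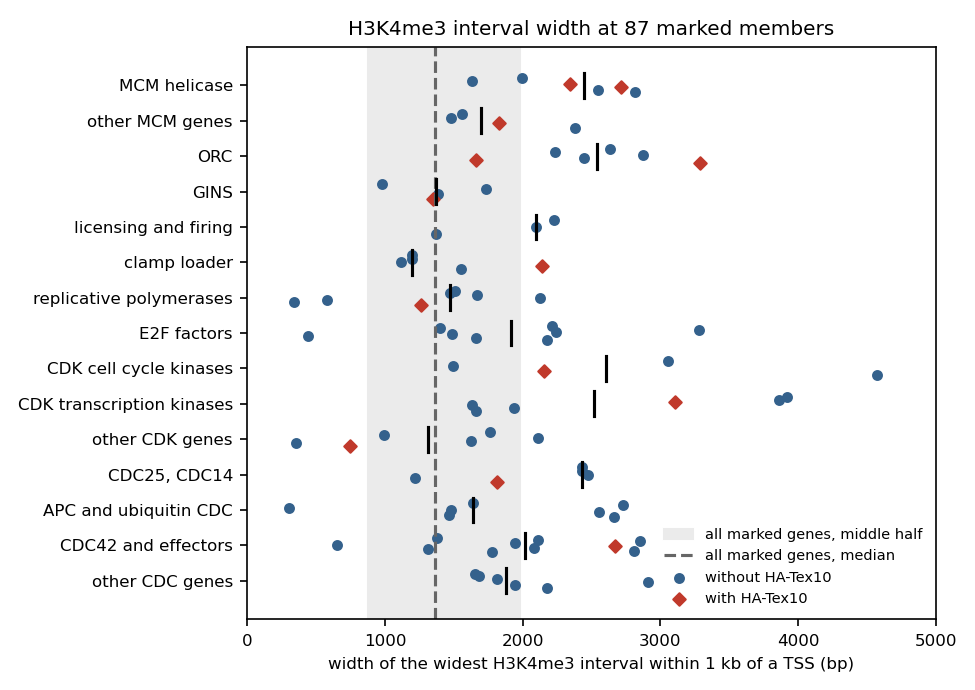
Width in bp of the widest H3K4me3 interval at each of the 87 marked members, by role; black bars are group medians and red diamonds are genes with HA-Tex10. The grey band (879 to 1981 bp) and dashed line (1360 bp) are the interquartile range and median of all marked genes.

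H3K4me3 lay mainly downstream of the start. Measured from the gene's 5'-most coding TSS within 1 kb of the interval, it reached a median of 415 bp upstream and 1322 bp downstream at members, against 283 and 1006.5 bp over all marked genes. The downstream side was the longer at 74 of 87 members (85.1%) and at 82.6% of all marked genes. The interval began past this TSS at 13 of 87 members (14.9%) and at 2789 of all 12966 marked genes (21.5%). The 13 included Mcm2 (11 bp past it), Mcm3 (13 bp), Cdc6 (8 bp), Rfc3 (30 bp) and Orc4 (37 bp). The upstream side was the longer at Mcm4 (1453 bp), Mcm8 (1021 bp) and Cdc45 (1311 bp), and at Cdk5, Cdc26, Cdc42se1 and Cdc40. Each had the start of another coding gene on the opposite strand within 1 kb of its 5'-most coding TSS. The upstream side was also the longer at Mcm9, Pold4, Cdk10, Cdk14, Cdc42bpa and Cdc42ep3, which had no such neighbour there. At Mcm9 and Cdk14 the interval lay at a later start site, where no neighbour was searched for. Such divergent partners were present at 18 of 91 members (19.8%), against 11.4% of all genes, and at 4 of the 6 ORC genes. All 18 were among the 87 marked members, and of all marked genes 17.4% had such a partner.

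HA-Tex10 intervals at members were counted only within 1 kb of a TSS, so their nearness to the start is set by that rule. The 13 genes had 14 intervals, and their median width was 230 bp (range 25 to 556 bp), against 234 bp for all 1771 HA-Tex10 intervals at a coding TSS. Their centres had a median of -65.5 bp from the nearest TSS, where negative is upstream, and ranged from -384 to 512 bp. Over all such intervals the median was -18.5 bp. Of the 14, 7 contained a TSS (50%, against 44.2% of all). All 14 overlapped H3K4me3, against 90.3% of all, and none lay mostly in repeated sequence, against 7.34%.

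**Figure D5:**
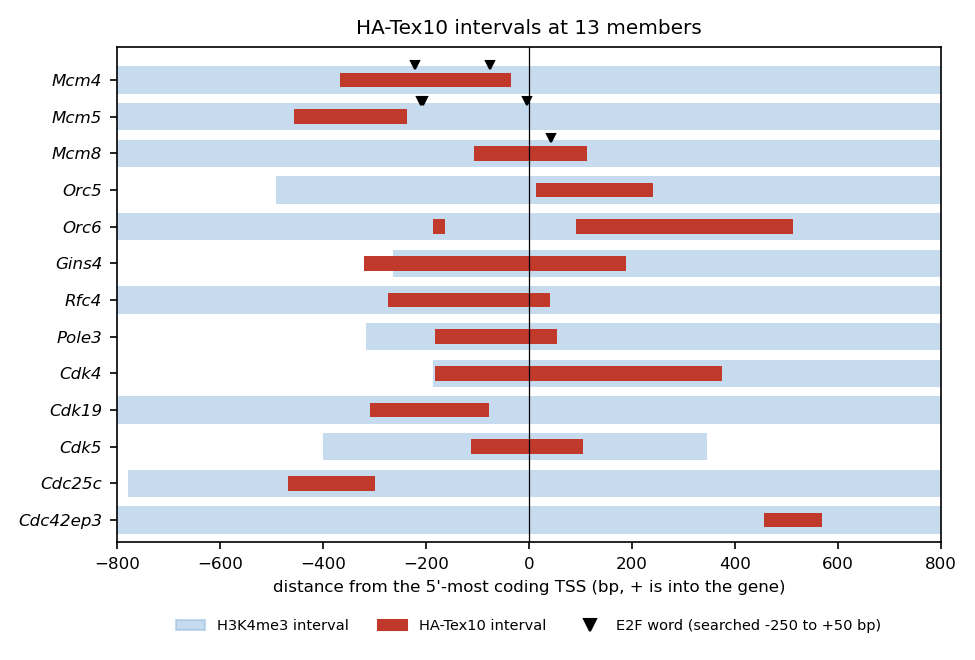
HA-Tex10 (red) and H3K4me3 (pale blue) intervals at the 13 members with HA-Tex10, by distance in bp from the 5'-most coding TSS; triangles mark E2F words. Red bars cross the start at Mcm8, Gins4, Rfc4, Pole3, Cdk4 and Cdk5, lie upstream at Mcm4, Mcm5, Cdk19 and Cdc25c and downstream at Orc5 and Cdc42ep3, while Orc6 has one on each side.

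In the MCM helicase, 2 of the 6 genes had an interval. At Mcm4 it was 332 bp wide (chr16:15637435-15637766), centred 200.5 bp upstream of the nearest TSS, and it held 2 E2F words and 2 CCAAT boxes. At Mcm5 it was 219 bp wide (chr8:75109114-75109332), centred 346 bp upstream, and held neither word. The E2F words of Mcm5 began just downstream of its interval, in the second of the Mcm5 stretches below. Mcm8 had an interval of 219 bp (chr2:132816035-132816253) centred 3 bp from the TSS, over an exon, with an E2F word and a CCAAT box. Of the other HA-Tex10 intervals at members, none held an E2F word, so 2 of 14 did (14.3%), against 4.07% of all HA-Tex10 intervals at a coding TSS. The sequences are shown because these are the members where HA-Tex10 and E2F words lie together or side by side. They are the central 300 bp of the Mcm4 interval, the whole Mcm5 interval, the Mcm5 promoter stretch and the whole Mcm8 interval. Capitals mark E2F words, and in the interval sequences also CCAAT boxes (CCAAT or, on the other strand, ATTGG).
Mcm4 (chr16:15637451-15637750, minus strand): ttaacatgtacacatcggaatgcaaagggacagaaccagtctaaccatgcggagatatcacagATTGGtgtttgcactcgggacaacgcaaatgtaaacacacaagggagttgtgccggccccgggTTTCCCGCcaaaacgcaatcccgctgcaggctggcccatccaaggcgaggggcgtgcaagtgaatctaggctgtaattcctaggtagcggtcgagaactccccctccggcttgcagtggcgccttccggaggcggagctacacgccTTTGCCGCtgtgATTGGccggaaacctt
Mcm5 (chr8:75109114-75109332, plus strand): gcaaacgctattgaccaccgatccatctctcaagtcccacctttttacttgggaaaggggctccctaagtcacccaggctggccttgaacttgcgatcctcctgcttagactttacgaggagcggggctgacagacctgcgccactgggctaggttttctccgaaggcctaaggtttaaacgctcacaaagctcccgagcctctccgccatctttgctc
Mcm5 (chr8:75109336-75109588, plus strand): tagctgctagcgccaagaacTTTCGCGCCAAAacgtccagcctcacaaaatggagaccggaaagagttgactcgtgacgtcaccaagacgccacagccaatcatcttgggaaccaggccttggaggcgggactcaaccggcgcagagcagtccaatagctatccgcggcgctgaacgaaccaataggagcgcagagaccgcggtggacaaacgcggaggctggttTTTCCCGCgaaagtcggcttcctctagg
Mcm8 (chr2:132816035-132816253, plus strand): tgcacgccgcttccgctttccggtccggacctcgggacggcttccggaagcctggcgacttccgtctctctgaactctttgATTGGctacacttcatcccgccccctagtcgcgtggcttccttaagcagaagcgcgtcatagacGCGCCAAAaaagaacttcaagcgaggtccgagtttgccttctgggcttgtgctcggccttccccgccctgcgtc

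Of the ORC genes, Orc5 and Orc6 had intervals. At Orc5 it was 228 bp wide (chr5:22550135-22550362), began 13 bp downstream of the nearest coding TSS and was centred 126.5 bp downstream of it, over a coding exon. Orc6, which carried the widest H3K4me3 interval of any member outside the kinases, had 2 HA-Tex10 intervals. The smaller spanned 25 bp (chr8:85299445-85299469), centred 175 bp upstream, and the larger 421 bp (chr8:85299724-85300144), centred 143 bp downstream, with 2 CCAAT boxes. Gins4, a GINS subunit, had an interval of 510 bp (chr8:23237471-23237980), centred 66.5 bp upstream. It was the only 1 of the 14 that was not wholly inside an H3K4me3 interval, reaching past its upstream end. The central 300 bp of the larger Orc6 interval and of the Gins4 interval are shown, with CCAAT boxes in capitals.
Orc6 (chr8:85299784-85300083, plus strand): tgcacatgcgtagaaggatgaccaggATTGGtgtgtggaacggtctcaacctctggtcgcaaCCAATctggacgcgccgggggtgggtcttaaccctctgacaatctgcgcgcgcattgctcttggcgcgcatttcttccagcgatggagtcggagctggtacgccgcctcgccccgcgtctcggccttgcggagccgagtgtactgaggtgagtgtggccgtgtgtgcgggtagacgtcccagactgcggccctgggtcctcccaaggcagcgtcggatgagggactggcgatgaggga
Gins4 (chr8:23237576-23237875, minus strand): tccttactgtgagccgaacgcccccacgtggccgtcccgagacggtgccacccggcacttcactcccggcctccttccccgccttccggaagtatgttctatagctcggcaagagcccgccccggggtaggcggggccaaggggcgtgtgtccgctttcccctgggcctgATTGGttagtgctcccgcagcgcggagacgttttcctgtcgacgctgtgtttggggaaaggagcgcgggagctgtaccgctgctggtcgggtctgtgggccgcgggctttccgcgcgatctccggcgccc

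At the replication fork, Rfc4 of the clamp loader and Pole3 of polymerase epsilon had intervals. The Rfc4 interval was 314 bp wide (chr16:23127697-23128010), centred 116.5 bp upstream, and contained a TSS. Pole3, which encodes a histone-fold subunit that pairs with POLE4, had 238 bp (chr4:62525014-62525251), centred 64.5 bp upstream. Cdc6, Cdc7 and Cdc45, the remaining 4 RFC genes and the 7 other polymerase subunits had none.

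Among the kinases, Cdk4, the cyclin D kinase that phosphorylates the retinoblastoma protein, had the widest HA-Tex10 interval of the members, 556 bp (chr10:127063352-127063907), centred 25.5 bp downstream of a TSS. It began 5 bp inside the H3K4me3 interval. Cdk6, its close relative with the widest H3K4me3 interval, had no HA-Tex10 interval within 643666 bp of a coding TSS. Cdk1 and Cdk2 had none within 557477 and 99991 bp. Cdk5, a kinase best known in neurons, had 219 bp (chr5:24423425-24423643), centred 4 bp upstream, in an H3K4me3 interval of only 745 bp. Cdk19, a Mediator kinase, had 232 bp (chr10:40348999-40349230), centred 193.5 bp upstream of the nearest TSS. The central 300 bp of the Cdk4 interval are shown as those of the kinase gene with the widest HA-Tex10 interval. They hold none of the E2F, CCAAT or NRF1 words, and the whole interval holds 1 CCAAT box.
Cdk4 (chr10:127063480-127063779, plus strand): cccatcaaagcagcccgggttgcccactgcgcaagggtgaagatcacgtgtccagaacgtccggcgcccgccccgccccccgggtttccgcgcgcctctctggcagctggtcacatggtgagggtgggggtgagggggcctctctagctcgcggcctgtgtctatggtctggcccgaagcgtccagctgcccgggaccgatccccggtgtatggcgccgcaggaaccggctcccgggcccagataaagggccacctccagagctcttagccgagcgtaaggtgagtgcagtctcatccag

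Cdc25c, a phosphatase that activates CDK1 at mitosis, had an HA-Tex10 interval of 169 bp (chr18:34751833-34752001), centred 384 bp upstream. Cdc42ep3, a CDC42 effector, had 113 bp (chr17:79354523-79354635), centred 512 bp downstream, in an intron. No E2F factor had an HA-Tex10 interval at a TSS (0 of 8), and neither did the anaphase-promoting complex and ubiquitin group (0 of 8) or the other CDC genes (0 of 6). The nearest HA-Tex10 interval to an E2F gene's start lay 7889 bp away at E2f4 and 7891 bp at E2f2. That of E2f2 lay inside the gene (chr4:136180285-136180584, 300 bp) and met H3K4me3. Further intervals inside members and away from their starts were found at Cdk4 (2739 bp from a TSS), Cdk19 (14126 bp), Cdk8 (29600 bp) and Cdk18 (7960 bp). The Cdk18 interval lay mostly in repeated sequence, with 88.1% of its 32-base words occurring more than once in the reference. The Cdk4 and Cdk18 intervals met no H3K4me3.

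At 5 of the 13 genes the interval also lay within 1 kb of a coding TSS of another gene, so the promoter it marks cannot be told apart. These were Mcm4 with Prkdc (123 bp from the interval), Mcm8 with Trmt6 (0 bp), Orc6 with Vps35 (0 bp), Pole3 with 4933430I17Rik (118 bp) and Cdk5 with Slc4a2 (194 bp). Prkdc encodes a DNA repair kinase, Trmt6 a tRNA methyltransferase subunit and Vps35 a retromer subunit. HA-Tex10 was present at 5 of 18 marked members with a divergent partner (27.8%) and at 8 of 69 without (11.6%). The corresponding shares of all marked genes were 24.2% and 12.2%, close to the members' in each class.

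Chromosome 8 stood apart in the HA-Tex10 list, with intervals at 41.2% of its marked genes and 12.7% on the other autosomes. Of the 8 members on it, 3 had HA-Tex10 (Mcm5, Orc6 and Gins4) and 5 did not (Gins2, Gins3, E2f4, Cdk10 and Cdc16). Without chromosome 8, 10 of 79 marked members had an interval (12.7%), the same share as all marked genes there. The groups of the replication machinery, that is MCM2 to MCM7, ORC, GINS, RFC, the polymerase subunits, Cdc6, Cdc7 and Cdc45, had HA-Tex10 at 7 of 31 marked genes (22.6%), against 6 of 56 other members (10.7%). Without chromosome 8 the replication machinery had it at 4 of 26 marked genes (15.4%). What sets chromosome 8 apart was not tested.

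Members with HA-Tex10 had H3K4me3 intervals of 2139 bp at the median (13 genes, 745 to 3287 bp), and marked members without it 1767 bp (74 genes, 305 to 4573 bp), with overlapping ranges. Over all marked genes the medians were 1756 and 1294 bp. Among marked genes of 1982 bp or more, HA-Tex10 was present at 7 of 39 members (17.9%) and 23.3% of all genes. Between 1361 and 1981 bp it was present at 3 of 32 members (9.38%) and 16.6% of all genes. From 880 to 1360 bp it was present at 2 of 9 members (22.2%) and 11.3% of all genes, and up to 879 bp at 1 of 7 members (14.3%) and 5.98% of all genes. The members' share was below that of all genes in the wider classes and above it in the narrower ones, which hold few members.

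A list of 71 further replication and cell cycle genes outside the name pattern was read in the same way. All 71 had H3K4me3, against 62.6% of all autosomal protein-coding genes, with a median width of 1946 bp (1360 bp over all marked genes). HA-Tex10 was present at 14 (19.7%, 95% Wilson interval 12.1 to 30.4%), against 14.3% of all marked genes, which that interval includes. Of 27 replication genes, 5 had HA-Tex10. They were Gmnn, which encodes the licensing inhibitor geminin, the primase gene Prim1, the ribonucleotide reductase gene Rrm1, Ticrr and Tipin. Of 16 cyclins and CDK inhibitors there were 2, Ccna2 and Cdkn2b. The interval at Ccna2, whose cyclin drives S phase and mitosis, was 273 bp wide and centred 18 bp downstream of the TSS. Of 23 genes of mitosis and checkpoints, 7 had an interval (Chek1, Atm, Wee1, Mad2l1, Skp2, Anapc10 and Anapc13). Of these, Atm has the divergent partner Npat, a regulator of histone genes, Anapc10 has Abce1 and Anapc13 has Cep63. Anapc10 also lies on chromosome 8. The pocket protein and DP genes Rb1, Rbl1, Rbl2, Tfdp1 and Tfdp2 had 0 of 5, with a 95% Wilson interval that reaches 43.4%. Genes of the same families that the symbols leave out were Cdk11b, which had H3K4me3 of 1280 bp and an HA-Tex10 interval 77 bp from a TSS, and Pole, with H3K4me3 of 2083 bp and no HA-Tex10. On the X chromosome, Pola1 (1116 bp) and Cdk16 (757 bp) had H3K4me3 and no HA-Tex10.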

How the data were processed

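Per the submitters' processing notes, Bowtie2 2.3.4.3, SAMtools 1.9, MACS2 2.1.2 and HOMER were used with build mm10; their roles, the peak threshold, the use of input and the handling of replicates are not given in the sources used here. The authors deposited 3 lists of interval starts and ends in bp, with no signal. The list of HA-Tex10 intervals (4331) and that of H3K4me3 intervals (29072) were used. The third holds 2990 distinct HA-Tex10 intervals and served as an alternative. Replicates cannot be told apart in these lists and give no error, so no test was run. GENCODE M21 on GRCm38 (mm10) gave the genes and TSS. Sequences came from the RefSeq GRCm38.p6 FASTA of the assembled chromosomes. Members are set beside all protein-coding genes on the same chromosomes, with Wilson 95% intervals in places. Repeated sequence means over 50% of 32-base words occurring more than once. Scripts used Python 3.11.15 and were tested on simulated intervals. The members and lists were chosen with earlier results of these data known, and the E2F, CHR, CCAAT and NRF1 words as known cell cycle or promoter words. Named are all members with HA-Tex10 or without H3K4me3, the 5 widest and 5 narrowest, the replication subunits, the E2F genes, Cdk1, Cdk2, Cdk4 and Cdk6, other listed genes with HA-Tex10 and genes sharing an interval. Other genes named as examples were chosen after their values were seen.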

Additional observations from a re-analysis of the deposited data

How the results depend on the processing

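No paired analysis was possible because the replicates of an antibody stand together in its list. For the same reason no replicate could be left out. Depth limits what absence means: where no interval is listed, HA-Tex10 or H3K4me3 was not detectable at a depth and threshold that are unknown. Of 52 values under alternatives, 44 stayed within the counting interval or within 1.5 times the main count, and 8 did not. The 13 members with HA-Tex10 became 7 when the interval had to contain the TSS, while the share of all genes fell from 9.13% to 4.06%. The share of marked members was then 9.09%, against 7.01% of all marked genes. With HA-Tex10 intervals wider than the median the 13 became 6, and the share of all genes was 4.86%. That setting lowered the share of marked members from 14.9% to 6.90% (7.67% of all marked genes). The 7 genes of the replication machinery became 4 when the TSS had to be contained and 4 without chromosome 8. Searching 500 bp on each side of the TSS gave E2F words at 35.2% of members (7.27% of all genes), CCAAT at 84.6% (70.2%) and CHR at 44.0% (43.5%), since a longer window holds more words by its construction. The count of members with H3K4me3 ranged from 77 to 87 apart from the 79 of 83 left without chromosome 8, and their median width from 1811.5 to 2080 bp. Over these settings the share of all genes with H3K4me3 ranged from 51.5 to 65.7%.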
